A study of Drosophila melanogaster with 36 samples.

Results

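The genes described here are 10 members of the cnc-Keap1 oxidant defence of Drosophila melanogaster and of the enzymes it is known to serve: the regulators cnc, Keap1 and maf-S, the glutathione synthesis genes Gclc and Gclm, the catalase gene Cat, the superoxide dismutase genes Sod1 and Sod2, and the NADPH producers Zw and Pgd. They were chosen by symbol, and all 10 were found among the 17137 gene symbols counted. Each was tested in all 4 library sets.

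RNA was sequenced from S2R+ cells, an embryo-derived Drosophila line with hemocyte character. The 36 libraries formed 12 groups of 3 replicates. In each of 4 sets there were untreated cells (control), cells held for 3 h in 0.5 mM sodium arsenite (stress), and cells washed free of arsenite and kept for 3 h more in fresh medium (recovery). Rin RNAi cells were treated by RNA interference against rin (rasputin), whose mammalian counterpart G3BP builds stress granules, Mock RNAi cells were their RNAi control, and WT cells are labelled with no RNAi. These 3 sets were poly(A) libraries. The Click-iT set was labelled as total RNA and as bead captures, and the tagging steps are not described in the labels. All cells were of 1 line, and the labels do not say whether replicates were separate cultures, so p-values measure only the spread between these libraries.

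In animals, the transcription factor encoded by cnc (Nrf2 in mammals) binds DNA as a pair with the small Maf protein, maf-S in flies. Keap1 binds the cnc protein and promotes its degradation, and oxidants or electrophiles, arsenite among them, loosen that hold. The enzymes that follow make glutathione, remove superoxide and peroxide, and regenerate the NADPH that keeps glutathione reduced.

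Gene counts per poly(A) library ranged between 6121664 and 11211712 reads, and each of the 10 genes had between 306 and 5064 reads in each of them. Click-iT libraries held 169760 to 2746277 gene reads, with 70.2% to 94.2% of their reads set aside as aligning to several places, against 3.88% to 7.51% in poly(A) libraries. Among hemocyte and line markers srp, ush, Pxn and Sr-CI were at 96.1 CPM (TMM-scaled reads relative to library size) or more in all 27 poly(A) libraries, while NimC1 reached at most 0.313 CPM and He at most 1.32 CPM. The hemocyte markers eater and Hml went down to 1.27 and 6.20 CPM. The neuronal marker elav reached 40.6 CPM, and the fat-body genes Lsp2 and Fbp1 at most 0.403 CPM. Levels below are CPM scaled by TMM, with the WT set scaled apart from the Rin and Mock sets. The rin transcript stood at 204, 280.2 and 391 CPM in Rin control cells and 895, 896 and 912 CPM in Mock control cells. Under stress it stood at 145, 180.0 and 285 CPM in Rin cells and 751, 851 and 860.3 CPM in Mock cells, and in recovery at 150.3, 181 and 252 CPM in Rin cells and 792, 815 and 853 CPM in Mock cells. Fitted levels in Rin cells were 32.4%, 24.8% and 23.7% of those in Mock cells in control, stress and recovery.

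Per kilobase of exon, the 10 genes spanned a wide range of levels in WT control cells. Sod1, the cytosolic copper-zinc dismutase, was highest at 179 ± 1.25 CPM per kb (SD, n = 3), followed by Pgd at 106 ± 3.80. Cat at 89.0 ± 2.43, the mitochondrial dismutase gene Sod2 at 86.4 ± 2.92 and maf-S at 80.0 ± 2.67 CPM per kb came next, and Cat and Sod2 did not differ beyond their spread. Gclm stood at 30.6 ± 2.64 CPM per kb. The lowest 4 were cnc at 22.2 ± 0.379, Zw at 21.9 ± 0.905, Gclc at 19.9 ± 1.22 and Keap1 at 17.2 ± 0.583 CPM per kb, among which cnc and Zw, and likewise Zw and Gclc, did not differ beyond their spread.

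**Figure D1:**
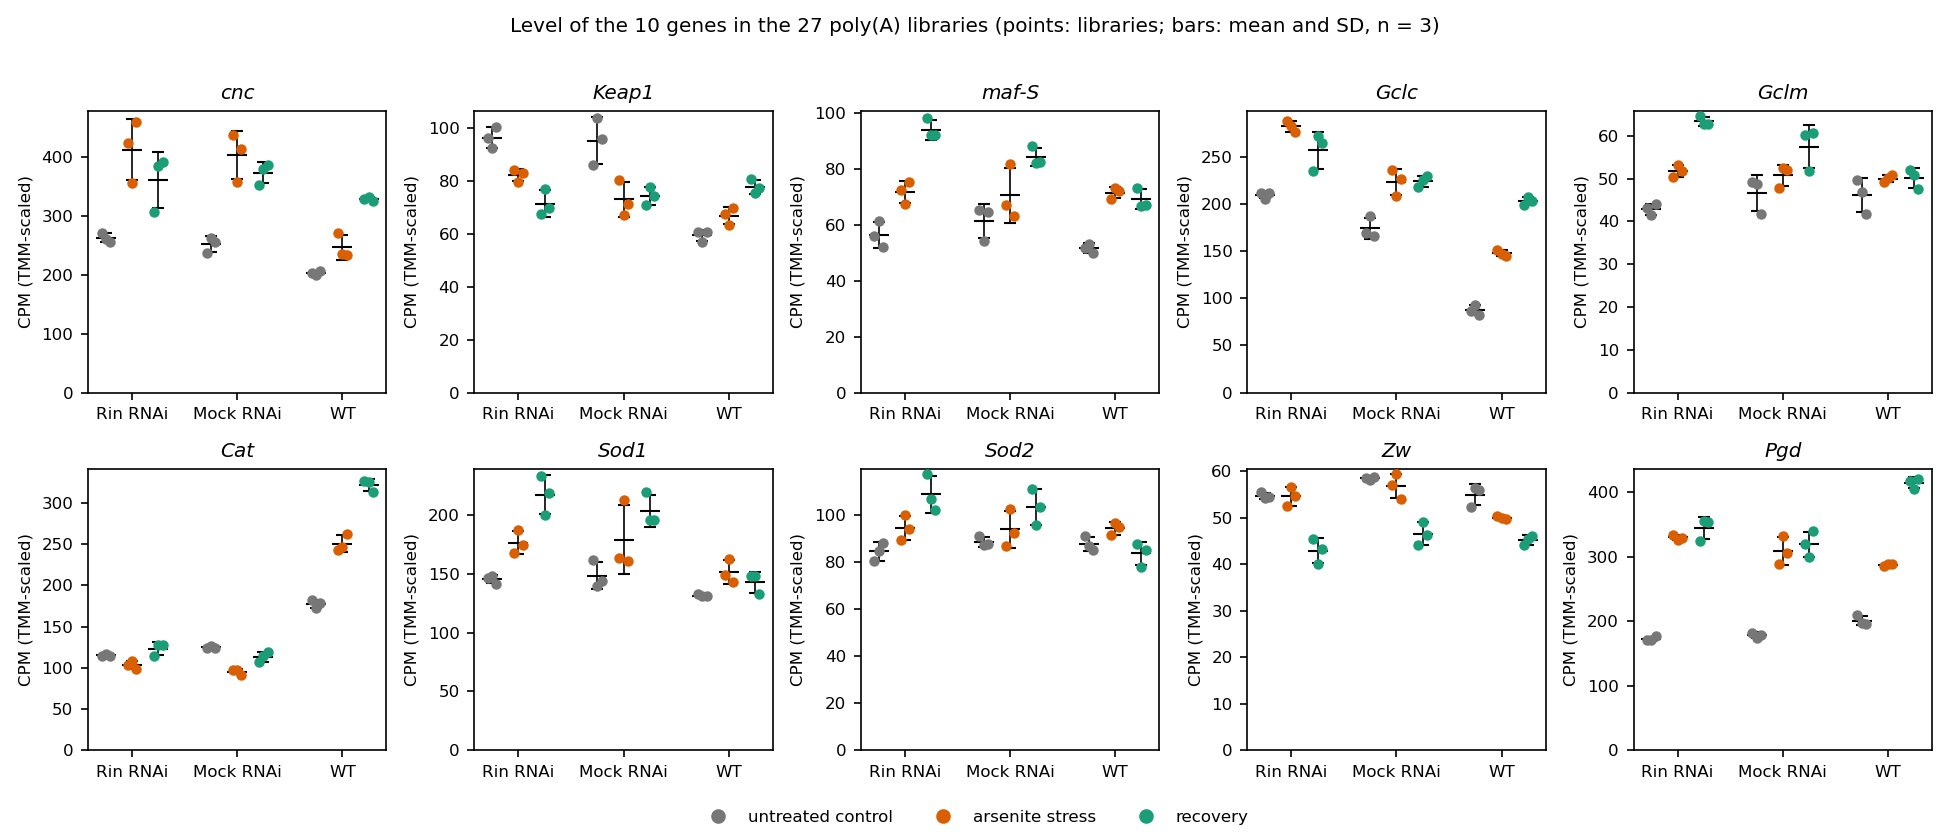
Level of each gene (vertical axis, TMM-scaled CPM from 0; WT scaled apart from Rin and Mock) in the 27 poly(A) libraries, with control, stress and recovery from left to right in each set. Points are libraries and bars are the mean and SD of 3. Cat lies at 313 to 327 CPM in WT recovery and below 130 CPM in all Rin and Mock libraries, while Pgd is higher in stress and recovery than in control in all 3 sets.

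Arsenite changed most of these genes, as it changed most genes of the cell. Called means an adjusted p under 0.05 in edgeR's quasi-likelihood test with Benjamini-Hochberg adjustment over all genes tested. In Rin cells 6 of the 10 rose and 2 fell under stress, where 61.2% of all genes were called (30.4% of all genes rose and 30.8% fell). In Rin recovery 7 rose and 2 fell, where 69.5% were called (35.2% of all genes rose and 34.3% fell). In Mock cells 4 rose and 2 fell under stress, where 58.8% were called (29% of all genes rose and 29.8% fell). In Mock recovery 7 rose and 3 fell, where 65.8% were called (33.1% of all genes rose and 32.8% fell). In WT cells 7 rose and 1 fell under stress, where 60.3% were called (30.3% of all genes rose and 30% fell). In WT recovery 7 rose and 1 fell, where 68.7% were called (35.2% of all genes rose and 33.5% fell). Most genes of the cell were thus called too, and the members are given gene by gene below by direction and size. In the same order the median log2 fold change of the 10 was 0.28, 0.16 and 0.24 under stress, where the median of all genes was 0.01, 0.00 and 0.01. In recovery it was 0.41, 0.33 and 0.41, against 0.03, 0.01 and 0.00 for all genes. Without regard to sign, the median change of the 10 under stress was 0.28, 0.31 and 0.24, against 0.34, 0.33 and 0.27 for all genes. The unsigned medians in recovery were 0.44, 0.36 and 0.41 for the 10 and 0.44, 0.39 and 0.31 for all genes. All changes are relative to the typical gene: scaling by total library size alone put the median of all genes at -0.16, -0.16 and -0.09 under stress and at -0.25, -0.23 and -0.18 in recovery, on the log2 scale, in Rin, Mock and WT cells. With that scaling the stress calls of maf-S (0.18), Gclm (0.11) and Sod1 (0.11) in Rin cells, of Sod1 (0.10) in Mock cells and of Keap1 (0.07) in WT cells were not made. Nor were the recovery calls of cnc (0.18), Gclc (0.02) and Sod2 (0.09) in Rin cells and of Gclc (0.12) and Gclm (0.05) in Mock cells, whereas Zw was called lower in Rin and Mock stress (-0.17 and -0.21) and Sod2 in WT recovery (-0.24). In these bulk libraries, fewer cells of a type and less RNA per cell cannot be told apart.

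The regulator gene cnc (FBgn0262975, dm6 chromosome 3R, positions 23185580 to 23226711, minus strand, 16 annotated transcripts) rose in all 3 sets. Rin cells had 272, 262 and 256 CPM in control, 424, 357 and 459 CPM in stress and 307, 385 and 392 CPM in recovery. Mock cells had 237, 263 and 256 CPM in control, 438, 358 and 414 CPM in stress and 354, 381 and 387 CPM in recovery. WT cells had 203, 200.1 and 207 CPM in control, 272, 236 and 233 CPM in stress and 329, 333 and 325 CPM in recovery. No treated library overlapped the controls of its set. The log2 fold change under stress was 0.65 ± 0.09 (SE) in Rin, 0.68 ± 0.10 in Mock and 0.28 ± 0.05 in WT cells, with adjusted p of 5.61e-06, 3.88e-06 and 1.36e-06. In recovery it was 0.46 ± 0.09, 0.57 ± 0.09 and 0.69 ± 0.04, with adjusted p of 0.000232, 2.47e-05 and 3.18e-17. WT cells were the set in which recovery lay above stress for cnc, by 0.42 log2 (adjusted p = 2.13e-10), while the Rin and Mock differences of -0.19 and -0.11 did not pass. The Rin difference was called with total library size scaling (-0.31), without the filter on low counts (-0.20) and without Rin stress replicate 2 (-0.28). The counts sum over transcripts, so isoforms of cnc were not separated.

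Keap1 (FBgn0038475, 3R, positions 17073942 to 17079945, minus strand), which encodes the adaptor that marks the cnc protein for degradation, fell in Rin and Mock cells and rose in WT cells. Rin cells had 96.2, 92.4 and 100.1 CPM in control, 83.9, 79.3 and 83.0 CPM in stress and 67.2, 76.9 and 69.7 CPM in recovery. Mock cells had 86.0, 104 and 95.6 CPM in control, 80.2, 67.2 and 71.2 CPM in stress and 70.7, 77.5 and 74.1 CPM in recovery. WT cells had 60.5, 57.0 and 60.5 CPM in control, 67.4, 63.3 and 69.7 CPM in stress and 80.6, 75.1 and 77.2 CPM in recovery. Treated libraries were all below the controls in Rin and Mock cells and all above them in WT cells. The log2 change in Rin cells was -0.23 ± 0.07 under stress and -0.43 ± 0.07 in recovery (adjusted p = 0.00988 and 3.12e-05). In Mock cells the values were -0.38 ± 0.07 and -0.36 ± 0.07 (adjusted p = 0.000185 and 0.000241). In WT cells Keap1 rose, by 0.17 ± 0.06 under stress and 0.39 ± 0.06 in recovery (adjusted p = 0.0117 and 8.97e-08). The WT stress call was not made without WT control replicate 2 or WT stress replicate 3 (log2 0.13 to 0.14), nor in the authors' deposited table, where the adjusted p is 0.0607.

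The transcript of maf-S (FBgn0034534, 2R, positions 20640976 to 20641668, plus strand), the small Maf partner, rose in 5 of these 6 comparisons. Its stress level was 72.7, 67.5 and 75.3 CPM in Rin, 67.1, 81.7 and 63.1 CPM in Mock and 69.3, 73.1 and 72.1 CPM in WT cells. Control cells had 55.9, 61.3 and 52.0 CPM in Rin, 65.2, 54.3 and 64.6 CPM in Mock and 51.9, 53.3 and 49.9 CPM in WT. Stress and control libraries overlapped in Mock cells and not in Rin or WT cells. The stress change was 0.35 ± 0.09 in Rin (adjusted p = 0.00171), 0.20 ± 0.09 in Mock (adjusted p = 0.0539, not called) and 0.47 ± 0.06 in WT cells (adjusted p = 8.02e-09). In recovery maf-S reached 98.3, 92.1 and 92.1 CPM in Rin, 88.1, 82.2 and 82.5 CPM in Mock and 73.3, 66.9 and 67.3 CPM in WT cells, log2 changes of 0.74, 0.46 and 0.42, all called. Between stress and recovery it rose in Rin cells, by 0.39 (adjusted p = 0.0024). The Mock stress change was called when Mock control replicate 1 or 3, or Mock stress replicate 1 or 3, was left out (log2 0.24 to 0.28).

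The ratio of Keap1 to cnc reads within a library was lower under stress and in recovery in Rin and Mock cells. Rin stress libraries had 0.198, 0.222 and 0.181 and Rin control libraries 0.354, 0.353 and 0.391. Mock stress libraries had 0.183, 0.187 and 0.172 and Mock control libraries 0.362, 0.393 and 0.373. Recovery libraries had 0.178 to 0.219 in Rin and 0.191 to 0.203 in Mock cells, all below the controls of their set. In WT cells the ratio was 0.248, 0.269 and 0.298 in stress and 0.297, 0.285 and 0.292 in control, and these overlapped. WT recovery libraries, at 0.245, 0.225 and 0.237, lay below the WT controls. With 3 libraries against 3, the exact two-sided permutation test can give no p below 0.1, and that is the p of each group pair without overlap (0.141 after adjustment over the 24 ratio tests made here).

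Gclc (FBgn0040319, X, positions 8102181 to 8116147, minus strand), the catalytic subunit of glutamate-cysteine ligase, the rate-limiting enzyme of glutathione synthesis, rose in every treated group of the poly(A) sets and most in WT recovery. In Rin cells it stood at 212, 206 and 211 CPM in control, 288, 283 and 277 CPM in stress and 235, 272 and 265 CPM in recovery. In Mock cells it stood at 169.9, 187 and 166 CPM in control, 236, 209 and 227 CPM in stress and 218, 226 and 229 CPM in recovery. In WT cells it stood at 87.0, 93.3 and 82.5 CPM in control, 152, 147 and 145 CPM in stress and 199, 208 and 204 CPM in recovery. No treated library overlapped its controls, and in WT cells the recovery libraries all exceeded the stress libraries. The stress change was 0.43 ± 0.06 in Rin, 0.36 ± 0.06 in Mock and 0.76 ± 0.05 in WT cells (log2 ± SE, adjusted p = 6.22e-06, 6.58e-05 and 8.58e-17). The recovery change was 0.30 ± 0.06, 0.36 ± 0.06 and 1.22 ± 0.05 (adjusted p = 0.000323, 4.24e-05 and 1.78e-24), which in WT cells is 2.32-fold.

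Gclm (FBgn0046114, 3R, positions 22685006 to 22686510, minus strand), the modifier subunit of the same ligase, rose in Rin cells and in Mock recovery and had no call in WT cells. WT cells had 49.6, 46.8 and 41.8 CPM in control, 49.2, 50.0 and 50.8 CPM in stress and 51.9, 50.8 and 47.5 CPM in recovery, which overlap. Its WT changes were 0.12 (95% interval -0.01 to 0.26) and 0.13 (-0.01 to 0.26), neither of them called (adjusted p = 0.112 and 0.0822). In Rin cells Gclm had 43.1, 41.5 and 44.0 CPM in control, 50.5, 53.2 and 51.7 CPM in stress and 64.6, 62.7 and 62.8 CPM in recovery. The 3 Rin stages did not overlap, and Gclm rose by 0.27 under stress and 0.56 in recovery (adjusted p = 0.00236 and 5.02e-07). Mock cells had 49.2, 48.8 and 41.8 CPM in control, 47.9, 52.4 and 51.9 CPM in stress and 60.2, 51.7 and 60.6 CPM in recovery. The Mock recovery libraries all lay above the Mock controls, and the change of 0.30 was called (adjusted p = 0.000895), while that of 0.11 under stress was not. WT stress was called without WT control replicate 1 (0.17), and WT recovery without WT control replicate 1 or WT recovery replicate 3 (0.16 to 0.17).

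The ratio of Gclc to Gclm reads sets the 2 subunits against each other within a library. In WT cells it was 1.75, 1.99 and 1.98 in control, 3.09, 2.95 and 2.85 in stress and 3.84, 4.09 and 4.29 in recovery, without overlap between the 3 stages. Rin cells had 4.93, 4.96 and 4.80 in control, 5.72, 5.32 and 5.36 in stress and 3.64, 4.35 and 4.22 in recovery, so stress lay above and recovery below control. In Mock cells it was 3.45, 3.83 and 3.97 in control, 4.94, 3.98 and 4.37 in stress and 3.62, 4.37 and 3.79 in recovery, the recovery libraries overlapping the controls. Each pair without overlap has the smallest exact permutation p that 3 against 3 allow, 0.1 (0.141 adjusted).

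**Figure D2:**
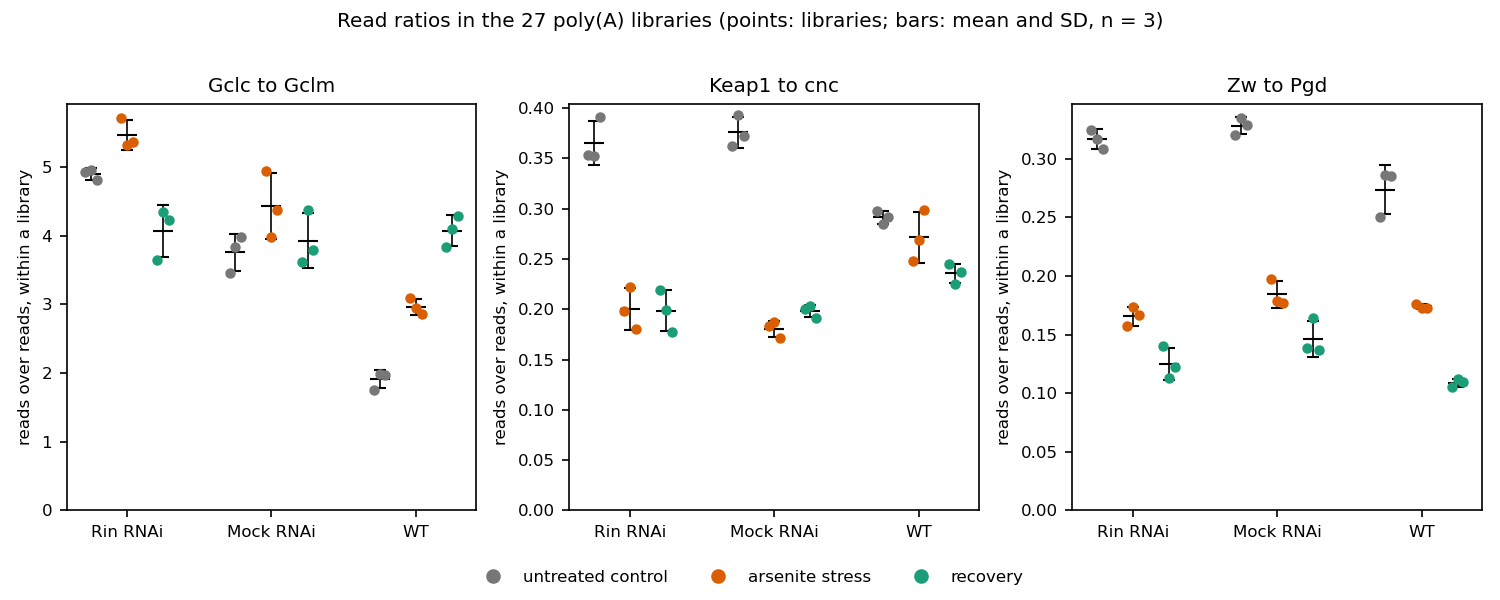
Read ratios within each of the 27 poly(A) libraries (vertical axis, reads over reads, from 0), for Gclc over Gclm, Keap1 over cnc and Zw over Pgd, with control, stress and recovery from left to right in each set. Points are libraries and bars are the mean and SD of 3. Zw over Pgd is lower in stress and recovery than in control in all 3 sets, and Gclc over Gclm reaches 3.84 to 4.29 in WT recovery.

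Cat (FBgn0000261, 3L, positions 18822604 to 18828188, plus strand), the enzyme that splits hydrogen peroxide, differed in direction between sets. Rin cells had 114, 117 and 115 CPM in control, 104, 108 and 98.2 CPM in stress and 114, 128 and 128 CPM in recovery. Mock cells had 124, 127 and 124 CPM in control, 97.5, 97.7 and 91.8 CPM in stress and 107, 114 and 119 CPM in recovery. WT cells had 182, 172 and 178 CPM in control, 243, 247 and 262 CPM in stress and 327, 325 and 313 CPM in recovery. In WT cells the 3 stages rose without overlap, by 0.50 ± 0.04 under stress and 0.86 ± 0.04 in recovery (adjusted p = 2.11e-13 and 2.39e-21), a recovery level 1.82-fold the control. Cat fell under stress in Rin and Mock cells, with log2 changes of -0.16 ± 0.06 and -0.39 ± 0.06 (adjusted p = 0.026 and 1.13e-05). From stress to recovery Cat rose again in both, by 0.25 and 0.25 (adjusted p = 0.00355 and 0.0136). Recovery against control gave 0.10 in Rin cells (adjusted p = 0.143), a sign that turned to -0.18 and was called with total library size scaling, and -0.14 in Mock cells (adjusted p = 0.0411). Cat in Rin stress was not called without any 1 of Rin control replicate 2, Rin stress replicate 1 or Rin stress replicate 3 (-0.16 to -0.11), and Cat in Mock recovery was called in 1 of 6 leave-one-out fits (-0.15 to -0.09 where lost). Without Rin recovery replicate 1 the Rin recovery change was called (0.16).

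Sod1 (FBgn0003462, 3L, positions 11112281 to 11113740, minus strand) rose in recovery in Rin and Mock cells and, with TMM scaling but not with total library size (-0.05, not called), in WT cells. Rin recovery libraries had 233, 199.9 and 218 CPM and Rin control libraries 146, 148 and 141 CPM. Mock recovery libraries had 219, 196 and 195 CPM and Mock control libraries 161, 139 and 144 CPM. WT recovery libraries had 148, 148 and 133 CPM and WT control libraries 132, 131 and 131 CPM. The changes were 0.58 ± 0.09 in Rin, 0.46 ± 0.09 in Mock and 0.12 ± 0.05 in WT cells (adjusted p = 8.78e-06, 0.000154 and 0.0238). Under stress Sod1 rose by 0.28 in Rin, 0.27 in Mock and 0.21 in WT cells. Mock stress replicate 2, at 212 CPM, lay far above the other 2 Mock stress libraries at 161 and 164 CPM. That library also stood apart on the second principal component of the Rin and Mock libraries, at 2.21, against -17.9 and -15.0. Without it the Mock stress change was 0.13 and not called. That call was also lost without Mock control replicate 2 or 3 (0.23 to 0.25), and the Rin stress call without Rin stress replicate 2 (0.23). The WT recovery call was made in 2 of 6 leave-one-out fits (0.09 to 0.12 where lost), and the authors' deposited table gives an adjusted p of 0.0860 there.

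Sod2 (FBgn0010213, 2R, positions 16772785 to 16773915, minus strand), the mitochondrial manganese dismutase, rose in Rin and Mock recovery with TMM scaling, while with total library size scaling neither change was called (0.09 in Rin and -0.02 in Mock cells). Its recovery levels were 118, 107 and 102 CPM in Rin, 111, 95.9 and 103 CPM in Mock and 87.7, 78.0 and 85.3 CPM in WT cells. Controls had 80.4, 84.9 and 88.3 CPM in Rin, 91.1, 87.2 and 87.7 CPM in Mock and 91.0, 87.0 and 85.2 CPM in WT. Recovery libraries lay above control in Rin and Mock cells and overlapped it in WT cells. The recovery change was 0.37 in Rin (adjusted p = 0.00012), 0.22 in Mock (adjusted p = 0.0097) and -0.07 in WT cells (adjusted p = 0.271). Stress changes of 0.16, 0.08 and 0.11 in the same order were not called. The Mock recovery call was lost without Mock recovery replicate 1 (0.17), and the Rin stress change was called without Rin stress replicate 1 (0.20). Between WT recovery and WT stress the difference was -0.17 (adjusted p = 0.0106), a call not made without WT recovery replicate 2 (-0.13). Nor was that call made with DESeq2 (adjusted p = 0.0718) or in the authors' deposited table, where the adjusted p is 0.0576.

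Pgd (FBgn0004654, X, positions 2145136 to 2148566, plus strand), 6-phosphogluconate dehydrogenase, which makes NADPH in the pentose phosphate pathway, rose in all treated poly(A) groups. Rin cells had 171, 171 and 177 CPM in control, 334, 327 and 329 CPM in stress and 324, 355 and 353 CPM in recovery. Mock cells had 183, 174 and 179 CPM in control, 289, 332 and 306 CPM in stress and 319, 300.0 and 339 CPM in recovery. WT cells had 209, 198 and 196 CPM in control, 285, 289 and 288 CPM in stress and 418, 405 and 421 CPM in recovery. Treated libraries all lay above control in each set, and recovery lay above stress without overlap in WT cells. Stress changes were 0.93 ± 0.06 in Rin, 0.79 ± 0.06 in Mock and 0.52 ± 0.04 in WT cells (adjusted p = 5.54e-11, 7.92e-10 and 1.67e-14). Recovery changes were 0.99 ± 0.06, 0.84 ± 0.06 and 1.05 ± 0.04 (adjusted p = 1.42e-11, 2.10e-10 and 5.34e-25). Of the exonic length of Pgd, 5.49% is shared with bcn92 on the other strand.

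Zw (FBgn0004057, X, positions 19667252 to 19672353, plus strand), glucose-6-phosphate dehydrogenase, the first enzyme of that pathway, fell in recovery. Rin recovery libraries had 45.5, 40.2 and 43.3 CPM and Rin control libraries 55.5, 54.3 and 54.5 CPM. Mock recovery libraries had 44.2, 49.2 and 46.4 CPM and Mock control libraries 58.6, 58.1 and 58.9 CPM. WT recovery libraries had 44.1, 45.4 and 46.2 CPM and WT control libraries 52.4, 56.5 and 56.1 CPM. Recovery lay below control without overlap in all 3 sets, with changes of -0.35 ± 0.06, -0.33 ± 0.06 and -0.29 ± 0.06 (log2 ± SE, adjusted p = 3.53e-05, 6.27e-05 and 8.14e-05). Under stress the change was 0.00 in Rin, -0.04 in Mock and -0.14 in WT cells, of which the WT change was called (adjusted p = 0.0466). That WT call was made in 1 of 6 leave-one-out fits (-0.15 to -0.12 where lost), and the authors' deposited table gives an adjusted p of 0.205. Of the exonic length of Zw, 16.4% is shared with asRNA:CR44512 and et on the other strand. The library kit does not mark strand, and the counting strand is not given in the sources used here. Counted without strand, reads from those stretches would be among the reads left out as matching several genes, and counted with strand they would be split between the partners regardless of their origin.

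Within each library Zw was set against Pgd. The ratio of Zw to Pgd reads in recovery was 0.140, 0.113 and 0.122 in Rin, 0.138, 0.164 and 0.137 in Mock and 0.105, 0.112 and 0.110 in WT cells. Controls had 0.325, 0.317 and 0.308 in Rin, 0.321, 0.335 and 0.329 in Mock and 0.250, 0.286 and 0.285 in WT. No recovery library overlapped a control of its set, with log2 differences of -1.34, -1.17 and -1.33 (exact permutation p = 0.1, the smallest possible, 0.141 adjusted).

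**Figure D3:**
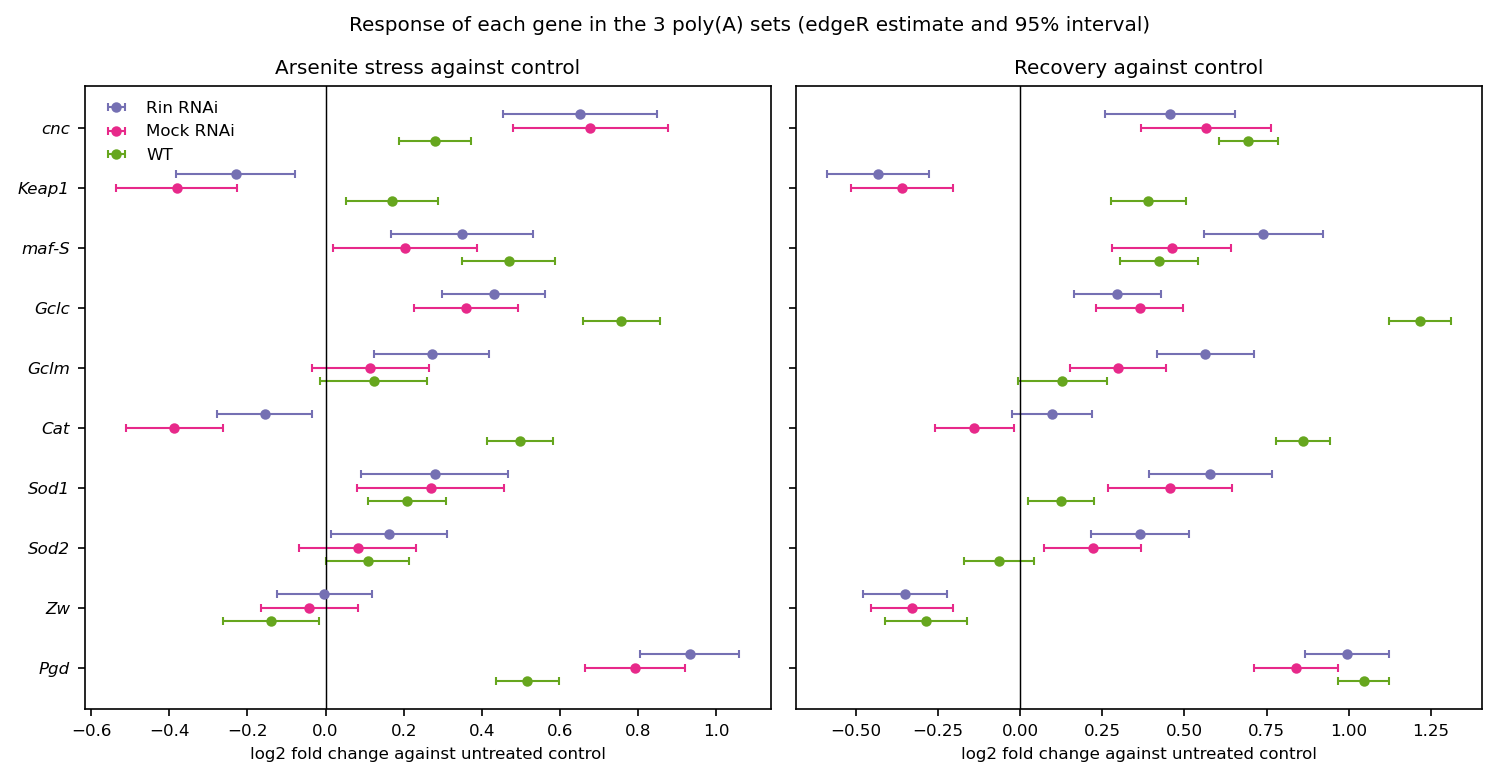
Log2 fold change of each gene (horizontal axis) under stress and in recovery, against the control of the same set, as estimated by edgeR with 95% intervals, in Rin, Mock and WT cells. Keap1 lies left of 0 in Rin and Mock and right of 0 in WT cells in both panels, and the largest value is that of Gclc in WT recovery, 1.22.

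Recovery was also set against stress in each set. Rin cells had 5 members higher and 2 lower in recovery than in stress (30.5% of all genes called, 14.2% higher and 16.2% lower), namely maf-S, Gclm, Cat, Sod1 and Sod2 up, and Keap1 and Zw down. Mock cells had Cat higher and Zw lower (9.33% of all genes called, 5.02% higher and 4.31% lower). WT cells had cnc, Keap1, Gclc, Cat and Pgd higher and Sod2 lower (26.5% of all genes called, 18.2% higher and 8.33% lower). Pgd differed by 0.06 in Rin (95% interval -0.06 to 0.19), 0.05 in Mock (-0.08 to 0.17) and 0.53 in WT cells (0.45 to 0.60). Whether these recovery-against-stress differences themselves differ between sets was not tested. The Keap1 call in Rin cells was made in 1 of 6 leave-one-out fits (-0.22 to -0.16 where lost), and the Sod2 call there in 2 of 6 (0.14 to 0.22 where lost). The Sod1 call in Rin cells was not made without Rin stress replicate 1 or 3 or Rin recovery replicate 1 (0.24 to 0.29), and cnc was called lower without Rin stress replicate 2 (-0.28). Without Mock stress replicate 2, maf-S, Gclm, Sod1 and Sod2 were also called higher in Mock recovery, at 0.37, 0.21, 0.33 and 0.21, while the Cat call was not made without Mock stress replicate 3 or Mock recovery replicate 3 (0.21 to 0.22). With total library size scaling the calls of Cat (0.14), Sod1 (0.18) and Sod2 (0.09) in Rin cells and of Cat (0.17) in Mock cells were not made, while cnc (-0.31) and Gclc (-0.25) in Rin cells and Sod1 (-0.16) and Zw (-0.22) in WT cells were called lower in recovery.

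Knockdown of rin left 9 of the 10 genes without a call against Mock in control, stress and recovery, where 0.0459%, 0.161% and 0.126% of all genes were called. Gclc was the exception, in stressed cells, with 288, 283 and 277 CPM in Rin stress and 236, 209 and 227 CPM in Mock stress. The Rin libraries all lay above the Mock libraries, by 0.34 ± 0.06 log2 (adjusted p = 0.0364). In control and recovery Rin libraries also lay above Mock libraries without overlap, by 0.27 and 0.20, without passing the adjusted threshold (adjusted p = 0.192 and 0.235). Lack of overlap was not particular to Gclc. Of the 10 members, 3 did not overlap between Rin and Mock in control, 2 in stress and 3 in recovery. The share of all genes without overlap is not given here. For Gclc the authors' deposited tables give 0.27, 0.33 and 0.20 for control, stress and recovery, with adjusted p of 0.0528, 0.000524 and 0.109. The stress call was lost in 4 of 6 leave-one-out fits, without Mock stress replicate 3 or any 1 of the 3 Rin stress libraries (0.32 to 0.35), and in the fit of only those 2 groups. The Gclc stress response differed between Rin and Mock by 0.07 (95% interval -0.12 to 0.26) and its recovery response by -0.07 (-0.26 to 0.12).

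The other members' Rin responses also did not differ from the Mock responses past the threshold: 0 of 8707 genes, members included, passed for stress or for recovery in edgeR's test, and DESeq2 called 0 members. At an unadjusted p under 0.05 there were 295 genes for stress and 759 for recovery, including 1 and 3 members. The widest member differences were those of Cat, 0.23 under stress (0.06 to 0.40) and 0.24 in recovery (0.07 to 0.41), of maf-S in recovery, 0.28 (0.02 to 0.54), and of Gclm in recovery, 0.27 (0.06 to 0.47). A p that misses the threshold does not show equal responses. The intervals of all 10 genes lie within -0.39 and 0.54 log2.

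Mock and WT responses, in contrast, differed for several members, tested as a difference of responses in a joint fit of the 27 poly(A) libraries. Under stress 5 of 10 differed (27.2% of all genes), and in recovery 5 of 10 (43%). Cat had the lowest value, a Mock minus WT difference of -0.90 log2 under stress (95% interval -1.05 to -0.74, adjusted p = 3.04e-10) and -0.95 in recovery (-1.11 to -0.80, adjusted p = 4.21e-11). Keap1 differed by -0.56 and -0.71, and Gclc by -0.41 and -0.81. Responses of cnc and Pgd under stress were larger in Mock than in WT cells, by 0.39 and 0.26, and those of Sod1 and Sod2 in recovery by 0.38 and 0.33. The Sod1 difference was not called without Mock recovery replicate 1 (0.31), and with total library size scaling neither Sod1 (0.27) nor Sod2 (0.22) was called, whereas maf-S under stress (-0.33) and Pgd in recovery (-0.27) were.

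The 2 sets already differed before arsenite, in a comparison added after the data had been seen. Gclc stood 0.99 ± 0.06 log2 higher in Mock control than in WT control cells, Keap1 0.67 ± 0.07, cnc 0.30 ± 0.09 and maf-S 0.24 ± 0.08. Cat and Pgd were lower in Mock control, with differences of -0.51 ± 0.05 and -0.18 ± 0.05. Of all genes 55.9% were called there. The maf-S call was not made without WT control replicate 3 or Mock control replicate 1 or 3 (0.18 to 0.21). The summed level of the 9 hemocyte and line markers was 1352 to 1480 CPM in Mock control and 4963 to 5182 CPM in WT control libraries, with NimC1 at or near 0. Pxn stood at 554, 560.4 and 579 CPM in Mock control and 3687, 3795 and 3799 CPM in WT control, and Hml at 11.2, 15.1 and 15.2 CPM in Mock control and 272, 308 and 318 CPM in WT control. Most of the gap between the sums lay in Pxn, so the sum does not stand for all 9 markers alike. Within each poly(A) set the sum was lower after arsenite, though not every marker was. In WT cells ush had 380.4, 390.2 and 407 CPM in stress and 236, 244 and 263 CPM in control. WT cells also had fz at 24.4, 26.7 and 27.5 CPM in stress and 16.6, 17.2 and 18.2 CPM in control. For the sum, Rin cells had 1395 to 1483 CPM in control, 991 to 1017 CPM in stress and 801 to 922 CPM in recovery. Mock cells had 864 to 1096 CPM in stress and 933 to 990.0 CPM in recovery, and WT cells 4175 to 4344 CPM in stress and 4171 to 4190 CPM in recovery. Mock treatment, and anything else that set these libraries apart from the WT ones, cannot be told apart in this design, and the part of the marker levels in these results was not tested.

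**Figure D4:**
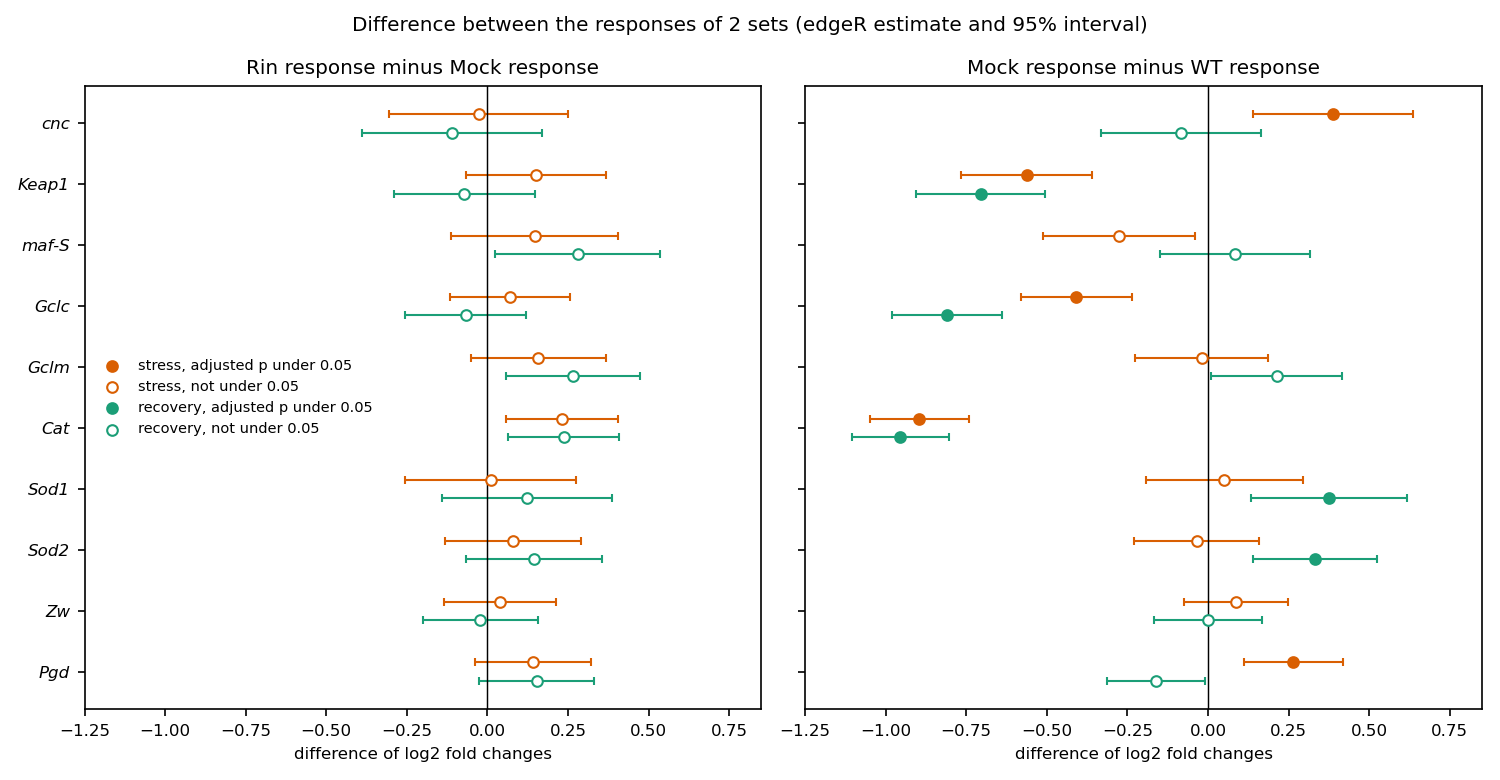
Difference between the log2 responses of 2 sets (horizontal axis), Rin minus Mock on the left and Mock minus WT on the right, for stress and recovery, with 95% intervals. Filled points have an adjusted p under 0.05. All 20 Rin minus Mock points are open, and the lowest Mock minus WT points are those of Cat, at -0.90 and -0.95.

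In the Click-iT captures none of the 10 genes was called in any comparison, where 0 of 6558 genes passed in edgeR's test, DESeq2 called 0 members but 160, 545 and 5 of 14137 genes, and 983, 1448 and 727 genes had an unadjusted p under 0.05 for stress against control, recovery against control and recovery against stress. Replicates differed far more than in poly(A) libraries, with a biological coefficient of variation of 42.8%, against 2.85% in the WT and 6.49% in the Rin and Mock fit. Members had 2 to 2100 reads per library. Gclc stood at 170.2, 225 and 151 CPM in control, 447, 179.7 and 785 CPM in stress and 839.7, 256 and 581 CPM in recovery. All 3 recovery libraries exceeded the controls, while stress replicate 2 lay among them. That library also lay among the controls on the first principal component of the set. The Gclc changes were 1.37 ± 0.55 and 1.62 ± 0.56 (adjusted p = 0.32 and 0.167).

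Pgd, Cat and Gclm likewise had recovery captures above all control captures, which makes 4 of the 10 members with Gclc, as 14.9% of all genes tested did. Pgd had 728, 274 and 499 CPM in recovery and 171, 178 and 157 CPM in control, a log2 difference of 1.57 ± 0.54. Cat had 485, 235 and 301 CPM in recovery and 136, 127 and 164 CPM in control, 1.27 ± 0.44. Gclm had 108, 45.6 and 143 CPM in recovery and 44.4, 35.9 and 43.9 CPM in control, 1.23 ± 0.44. For stress against control, Sod2 was the 1 member whose captures did not overlap, as was so for 15.7% of all genes tested, with 22.4, 18.5 and 13.7 CPM in stress and 67.8, 23.9 and 73.2 CPM in control, -1.57 ± 0.43 (adjusted p = 0.32). The authors' deposited tables do call Keap1, Gclc, Sod1 and Sod2 under stress and Gclc, Gclm, Cat and Pgd in recovery. The share of all genes called in those tables is not given here. For Gclc those tables give 1.32 under stress and 1.55 in recovery, with adjusted p of 0.0186 and 0.00481. The remaining captures overlapped their controls, and the 95% intervals of these changes were wide, such as -0.25 to 2.48 for cnc under stress.

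**Figure D5:**
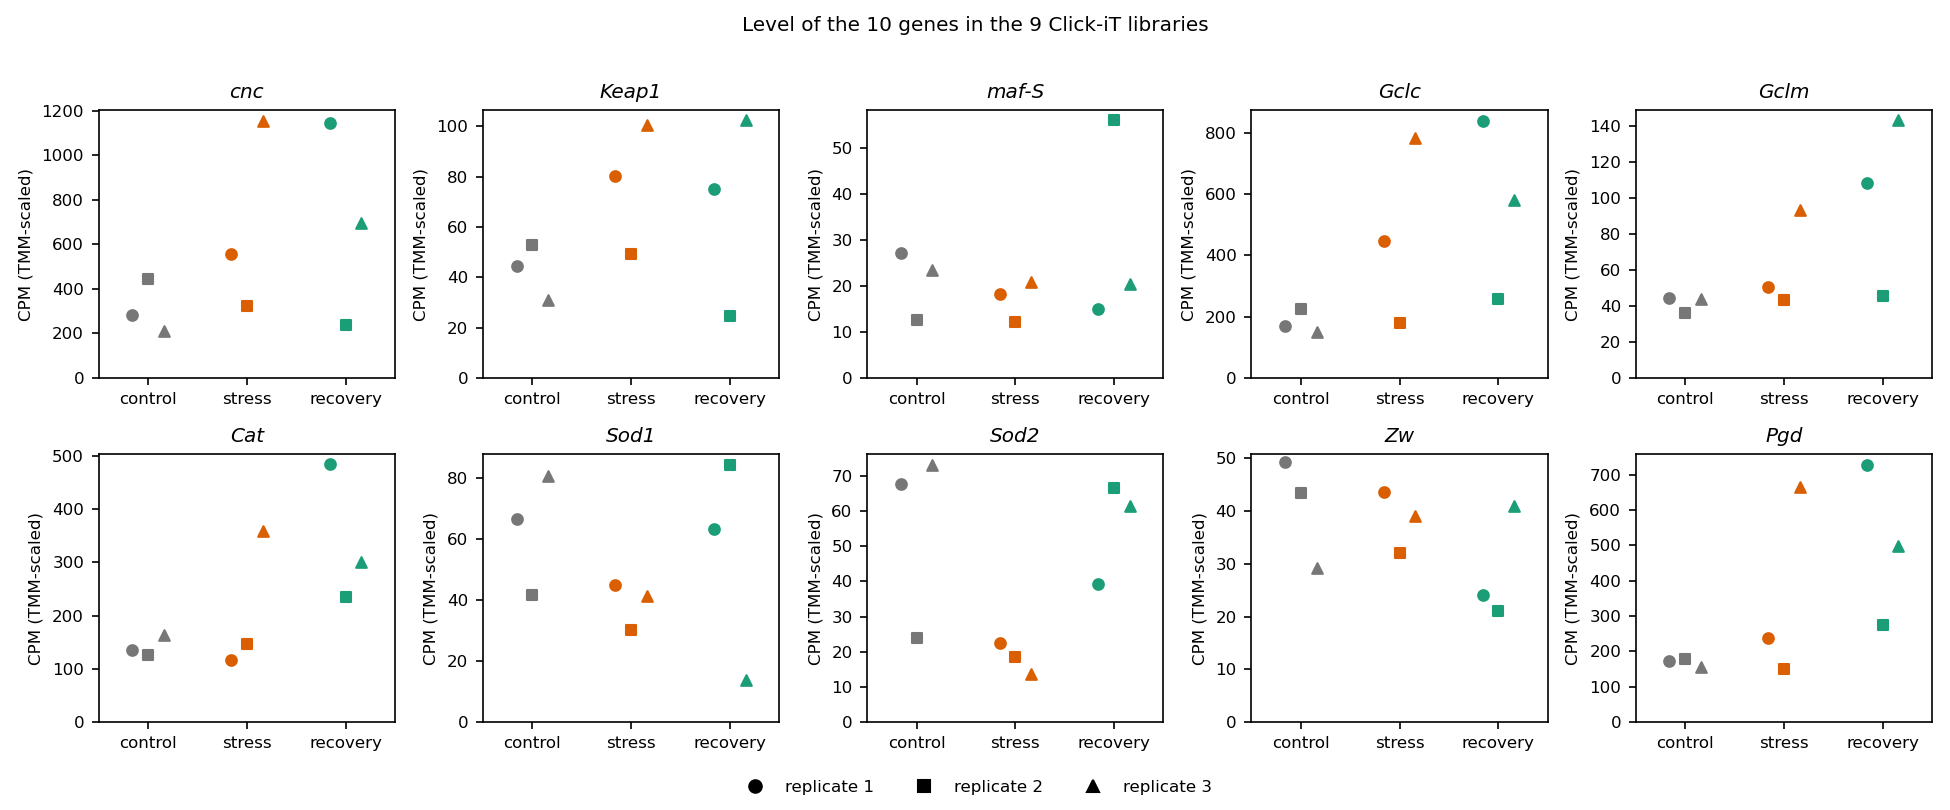
Level of each gene (vertical axis, TMM-scaled CPM from 0) in the 9 Click-iT libraries, with the replicate given by the marker shape. Recovery libraries lie above all controls for Gclc, Gclm, Cat and Pgd, and stress replicate 2 (orange square) lies among or near the controls for Gclc and Pgd.

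Other genes of the pathway were followed in 5 lists of 39 genes, of which 33 could be tested in the Rin and Mock sets and 30 in the WT set. All lists together had 16 genes higher and 8 lower in Rin stress, 16 higher and 9 lower in Mock stress, and 15 higher and 7 lower in WT stress, with median log2 changes of 0.11, 0.11 and 0.20. In recovery there were 18 higher and 7 lower in Rin, 16 higher and 8 lower in Mock, and 14 higher and 9 lower in WT cells, with medians of 0.32, 0.26 and 0.21. The medians and called shares of all genes are those given above. In Rin against Mock, 0 of 33 list genes were called in control, stress or recovery.

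The glutathione and thioredoxin list held 3 higher and 1 lower of 6 tested in Rin stress, 3 higher and 1 lower of 6 tested in Mock stress and 3 higher and 1 lower of 6 tested in WT stress. Trx-2 encodes the main cytosolic thioredoxin, Trxr-1 the reductase that recycles it (and, in flies, glutathione as well) and PHGPx a peroxidase. Trx-2 changed by 0.80 in Rin, 0.78 in Mock and 0.69 in WT stress, and by 1.28, 1.06 and 0.90 in recovery. Trxr-1 changed by 0.76, 0.66 and 0.52 under stress, and PHGPx by 0.62, 0.51 and 0.53, in the same order of sets, all called. Txl, a thioredoxin-like gene, fell in WT stress, with a log2 change of -0.22, and stood at 0.02 and -0.03 in Rin and Mock stress, not called.

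The list of other regulators held 1 higher and 2 lower of 5 tested in Rin stress, and for Mock stress 1 higher and 2 lower of 5 tested and for WT stress 2 higher and 2 lower of 5 tested. Of these, ref(2)P, the fly relative of the autophagy receptor p62, rose by 0.56 in Rin, 0.50 in Mock and 0.47 in WT stress, and by 0.77, 0.75 and 1.53 in recovery. Cul3, the ubiquitin ligase scaffold that works with Keap1, fell, with log2 changes of -0.52 in Rin, -0.49 in Mock and -0.11 in WT stress (adjusted p = 0.0484). The bromodomain gene fs(1)h fell in all 3 sets under stress, with changes of -0.51, -0.42 and -0.78. Roc1a, a RING partner of cullins, had 0.11 and 0.11, not called, and rose by 0.21 in WT stress. The list of other catalase and dismutase genes held 3 higher and 0 lower of 3 tested in Rin, 3 higher and 0 lower of 3 tested in Mock and 1 higher and 0 lower of 2 tested in WT stress. Its member Irc, an immune-regulated catalase, rose by 0.41, 0.43 and 0.22.

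Genes of the pentose phosphate and NADPH list were counted next. In Rin stress it held 5 higher and 1 lower of 8 tested, in Mock stress 5 higher and 1 lower of 8 tested, and in WT stress 3 higher and 3 lower of 8 tested. The malic enzyme gene Men, another NADPH source, rose by 0.41 in Rin and 0.38 in Mock stress and fell in WT stress, with -0.39. Rpi, ribose-5-phosphate isomerase, likewise changed by 0.43, 0.34 and -0.24, all called. Taldo, the transaldolase, rose in all 3, by 0.76, 0.66 and 0.21. CG17333, listed as 6-phosphogluconolactonase, fell in WT stress, with -0.25, and was not called in Rin or Mock stress.

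In the detoxification list, which is made of cytochrome P450, glutathione transferase and epoxide hydrolase genes, there were 4 higher and 4 lower of 11 tested in Rin stress, 4 higher and 5 lower of 11 tested in Mock stress and 6 higher and 1 lower of 9 tested in WT stress. GstD1, an abundant glutathione transferase, rose by 0.62, 0.40 and 0.67 under stress and by 1.10, 0.74 and 1.34 in recovery. GstD2 rose under stress by 0.93, 0.77 and 0.76. GstD7 stood at 11.5, 12.0 and 15.0 CPM in WT recovery and 0.127, 0.153 and 0.253 CPM in WT control, where it had 1 to 2 reads per library. Cyp12d1-p rose by 1.29 in WT stress and 0.28 in Rin stress, with 0.11 in Mock stress, not called. Cyp12d1-p and the GstD genes have close copies. Reads aligning to several places were left out of the counts, so the levels of these genes are uncertain.

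Over the 9 poly(A) group means, each centred on the control of its set, the genes outside the 10 whose log2(CPM + 1) ran most like that of Gclc were Hsc70-3 (Pearson's r = 0.996), Xrp1 (0.994) and Rph (0.993), and 129 of 7975 genes exceeded 0.95. For Pgd they were LamC (0.999), CG12795 (0.996) and Trxr-1 (0.995), with 265 genes over 0.95. Gclc and Pgd were the members past 2-fold in a WT comparison. The 9 points share treatments and scaling, and 3 of them are 0 by construction.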

How the data were processed

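Read counts per gene symbol were deposited for 36 libraries. The authors' counts came with 5 summary lines per file, which were kept out of all totals: 7.33% to 12.3% of poly(A) reads lay in no gene, and reads aligning to several places or to several genes were left out of the counts. STAR 2.5.3, HTSeq, DESeq2 and build dm6 are named, per the submitters' processing notes, without role or order. Annotation and strand setting of the counting are not given in the sources used here. Of the 17137 symbols, 17093 matched the reference gene names, from which coordinates and exon overlaps on dm6 were taken.

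The authors' deposited comparison tables, per the file headers, hold log2 fold changes, their standard errors, p-values and adjusted p-values for 12 comparisons. For the 10 genes, 119 of 120 deposited log2 values had the sign found here and 108 of 120 the same side of the threshold, with a median absolute difference of 0.0040.

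Counts were tested with edgeR 4.0.16 (R 4.3.3, limma 3.58.1), using filterByExpr, TMM scaling and quasi-likelihood tests with Benjamini-Hochberg adjustment over all genes of a fit. One fit held the 9 WT libraries (8123 genes), one the 18 Rin and Mock libraries (8707), one the 9 Click-iT libraries (6558) and one all 27 poly(A) libraries (8902), the last for Mock against WT. Ratios of reads within a library were compared by exact two-sided permutation on the log2 scale. Alternatives were other scalings, no filter, a replicate block, fits of only the groups compared, DESeq2 1.42.0, limma voom with quality weights for Click-iT, and leaving out each library. The fitting code was tested on simulated data.

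Groups came from the labels. Over 36 replicate pairs chi-square per degree of freedom was 1.21 to 94.2, so no pair was taken for 1 library deposited in duplicate. WT pairs had 1.21 to 2.61, where counting noise alone would give about 1, so these values do not show that replicates were separate cultures. Mock stress replicate 2 had 27.7 and 20.2 against replicates 1 and 3, which had 1.92 between them. The text names all 10 genes, rin, up to 4 genes of each list with the largest WT stress change among those called, and the 3 genes most like each member past 2-fold in a WT comparison. The 10 genes and the lists were chosen with earlier results of these data known. Counts limit precision, and without molecular identifiers reads are not independent molecules.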

Additional observations from a re-analysis of the deposited data

Results flagged for a closer look

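The responses to arsenite differed between Mock and WT cells for 10 gene and stage pairs, each by a test of the difference itself in the joint fit (edgeR, Benjamini-Hochberg adjusted). Of all 8902 genes tested there, 27.2% differed under stress and 43% in recovery. Under stress the Mock response minus the WT response was 0.39 for cnc (adjusted p = 0.017), -0.56 for Keap1 (adjusted p = 7.89e-05), -0.41 for Gclc (adjusted p = 0.000504), -0.90 for Cat (adjusted p = 3.04e-10) and 0.26 for Pgd (adjusted p = 0.00853), all on the log2 scale. In recovery it was -0.71 for Keap1 (adjusted p = 1.49e-06), -0.81 for Gclc (adjusted p = 1.08e-08), -0.95 for Cat (adjusted p = 4.21e-11), 0.38 for Sod1 (adjusted p = 0.0117) and 0.33 for Sod2 (adjusted p = 0.00573). With total library size scaling the recovery differences of Sod1 (0.27) and Sod2 (0.22) were not called. Those of maf-S under stress (-0.33) and Pgd in recovery (-0.27) were called with that scaling. For Keap1 the Mock response was negative and the WT response positive at both stages, and for Cat likewise. The labels give no batch or date, and Mock treatment cannot be told apart from any other difference between the sets.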

How the results depend on the processing

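Turned means a change of sign in a value called in either fit. A change of sign in a value called in neither fit was not counted. Over the other settings, 1160 of 1230 log2 values of the 10 genes kept their side of the threshold without turning. Of the rest, 35 lost and 32 gained a call, and 3 turned. With each library left out, 1372 of 1440 kept their side without turning, 47 lost and 21 gained a call, and 0 turned. The 3 that turned did so with total library size scaling: Sod1 in WT recovery (-0.051), Sod2 in Mock recovery (-0.021) and Cat in Rin recovery (-0.18, called). That scaling shifts all genes, as given above.

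Counts of called members moved as follows. Mock recovery against stress had 2 called, 1 with total library size, 0 with only the groups compared, and 1 to 6 with a library left out. Over all genes, 812 of 8707 were called in the fit used above. With total library size 1439 of 8707 were called, and with only the groups compared 99 of 8363. Rin recovery against stress had 7, and 4 to 7 with a library left out. Rin against Mock had 0 in control but 1, Gclc, without the filter and in DESeq2, and 1 in stress but 0 with only the groups compared and 0 to 1 with a library left out. Over all genes, Rin against Mock control had 4 of 8707 called, 58 of 14514 without the filter and 11 of 14514 in DESeq2. For Rin against Mock stress 14 of 8707 were called, and 1 of 8347 with only the groups compared. Click-iT stress had 0 but 2 without the filter and 3 in voom with quality weights. Click-iT recovery had 0 but 2 without the filter, 1 with only the groups compared and 5 in voom. Over all genes, voom called 1393 and 535 of 6558 in those 2 comparisons, against 0 in edgeR, and edgeR without the filter 851 and 1006 of 14137. The cause of these was not tested. With a library left out, the log2 Gclc to Gclm ratio in Mock recovery ran between -0.017 and 0.12 (0.06 with all), and Keap1 to cnc in Click-iT stress between -0.32 and 0.085 (-0.17 with all).

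Replicate numbers were not taken to pair the samples. Of same-numbered pairs, 0 of 9 in WT, 21 of 45 in Rin and Mock and 3 of 9 in Click-iT libraries had deviations correlated above 0.1. Among pairs with different numbers 3 of 18, 36 of 90 and 7 of 18 did, in the same order. With a replicate block the count went to 7 in WT stress, against 8 without it, to 6 in Rin recovery against stress, against 7, to 5 in Mock against WT control, against 6, and to 0 in Rin against Mock stress, against 1. Other counts were the same. Click-iT recovery libraries held 169760 to 441624 reads, which limits what they can show. Promoter motifs were not run.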

Other observations

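Among the detoxification genes, 2 chosen after their values were seen, Cyp6a2 and Cyp6a8, cytochrome P450 genes known from insecticide resistance, fell in Rin and Mock cells far more than any of the 10. Cyp6a2 stood at 0.868, 0.988 and 1.82 CPM in Mock stress and 11.0, 12.2 and 14.1 CPM in Mock control (log2 -3.34), and at 0.942, 0.998 and 1.46 CPM in Rin stress and 7.57, 11.3 and 12.9 CPM in Rin control (log2 -3.22). Its WT changes of 0.42 under stress and 0.33 in recovery were not called. Cyp6a8 changed by -3.94 in Rin and -4.83 in Mock stress, and by -0.54 in WT stress, not called. The Mock minus WT difference in response was -3.77 log2 under stress and -3.89 in recovery for Cyp6a2 (edgeR, adjusted p = 1.98e-08 and 7.75e-09), and -4.29 and -3.83 for Cyp6a8 (adjusted p = 1.58e-07 and 1.61e-07).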
